A study of Mus musculus with 6 samples.

Results

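The 43 genes described here encode the enzymes, loaders and regulators that copy DNA in S phase of the cell cycle. They were taken by symbol from a list of genes with these roles, and all 43 were found among the 23420 gene symbols of the count tables. All 43 also passed the filter on low counts, as did 15284 genes in all. RNA came from tooth germs of C57BL/6 mouse embryos labelled E15.5, with 3 wild-type libraries and 3 Smad7-/- libraries. The product of Smad7 is an inhibitory SMAD, a brake on the TGF-beta and BMP pathways, and the series sets tooth germs without it beside normal ones. The labels name no Cre driver, treatment, litter or pool, and do not say how the Smad7 allele was made. They also do not say whether each library comes from a separate animal. Xist and Ddx3y, given below, differ among the libraries of each genotype, so these are not all from the same embryo. The spread behind each p-value may still be technical in part.

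DNA replication is prepared in G1, when CDC6 and its partners load the MCM2-7 ring, the core of the replicative helicase, onto origins. At the start of S phase CDC45 and the GINS complex switch the ring on, and primase, polymerases, the PCNA clamp and its loaders follow. Many of these genes are transcribed in late G1 by E2F factors, which cyclin D and cyclin E kinases release from the pocket proteins. In the tooth germ at the cap to early bell stage the epithelial loops and the dental papilla divide, whereas cells of the enamel knot have left the cell cycle.

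The promoters of these genes are described first, by the motif letters they hold; no enrichment was tested. RefSeq promoter windows of 300 bases (250 before the start site and 50 from it on, build GRCm38.p6) were matched by symbol for 32 of the 43 genes. They were searched on both strands for the E2F site, written as TTTCCCGC or TTTGGCGC. A match was found for 12 of the 32 genes (37.5%), against 486 of 27025 genes with a promoter entry (1.80%). Of 56 further replication genes listed by function, 49 had an entry and 15 of them a match (30.6%). Of 55 genes of G2 and mitosis, 48 had an entry and 2 a match (4.17%). The CHR element, TTTGAA, which is known from promoters of G2/M genes, showed the opposite order. It was present in 6 of the 32 promoters (18.8%), in 35 of the 48 of the G2/M genes (72.9%) and in 20.2% of all. The CCAAT box was found in 20 of 32 (62.5%), 37 of 48 (77.1%) and 41.1% of all genes. An E2F match can share an end letter with a CCAAT box but not with a CHR element. A match is a description of the letters, not evidence of binding.

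Of the promoters below, 4 hold an E2F match, which is set in capitals, and the promoter of Rrm2 holds none. Mcm3 and Mcm6 were taken because they have 2 matches each, and Cdc6 because its product loads their ring. Pola1 varied most among the libraries, and Rrm2 was the member whose genotypes did not overlap. Each is written 5′ to 3′ on the strand of its gene.
Mcm3, chr1:20820263-20820562, reverse strand: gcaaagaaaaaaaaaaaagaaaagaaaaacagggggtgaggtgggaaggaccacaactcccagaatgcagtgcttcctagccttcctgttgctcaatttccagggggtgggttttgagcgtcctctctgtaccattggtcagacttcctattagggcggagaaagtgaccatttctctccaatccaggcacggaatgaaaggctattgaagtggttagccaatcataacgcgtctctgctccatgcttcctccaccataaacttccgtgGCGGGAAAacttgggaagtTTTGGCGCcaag
Mcm6, chr1:128359656-128359955, reverse strand: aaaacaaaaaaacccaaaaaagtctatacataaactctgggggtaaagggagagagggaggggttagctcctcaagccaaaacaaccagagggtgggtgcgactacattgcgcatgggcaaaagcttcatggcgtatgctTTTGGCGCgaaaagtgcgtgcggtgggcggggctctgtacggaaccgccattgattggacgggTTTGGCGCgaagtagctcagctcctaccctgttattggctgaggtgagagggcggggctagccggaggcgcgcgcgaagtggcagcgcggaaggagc
Cdc6, chr11:98907901-98908200, forward strand: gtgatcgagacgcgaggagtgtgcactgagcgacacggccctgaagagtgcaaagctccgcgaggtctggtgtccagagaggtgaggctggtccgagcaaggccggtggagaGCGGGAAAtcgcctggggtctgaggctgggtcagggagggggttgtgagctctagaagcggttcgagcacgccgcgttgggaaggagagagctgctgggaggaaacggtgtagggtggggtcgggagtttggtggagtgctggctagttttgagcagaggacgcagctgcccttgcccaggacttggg
Pola1, chrX:93632106-93632405, reverse strand: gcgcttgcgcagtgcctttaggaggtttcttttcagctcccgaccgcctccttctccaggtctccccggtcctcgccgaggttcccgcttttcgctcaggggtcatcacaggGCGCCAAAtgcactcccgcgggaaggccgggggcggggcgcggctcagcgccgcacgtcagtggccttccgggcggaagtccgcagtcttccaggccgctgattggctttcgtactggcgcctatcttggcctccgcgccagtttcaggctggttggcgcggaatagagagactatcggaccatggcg
Rrm2, chr12:24708004-24708303, forward strand: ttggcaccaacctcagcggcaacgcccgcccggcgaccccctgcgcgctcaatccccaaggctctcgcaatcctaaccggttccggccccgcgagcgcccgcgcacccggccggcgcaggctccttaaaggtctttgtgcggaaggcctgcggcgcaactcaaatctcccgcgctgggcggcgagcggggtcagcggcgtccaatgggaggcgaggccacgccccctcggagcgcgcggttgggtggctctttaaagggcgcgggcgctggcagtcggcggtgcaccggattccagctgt
Counted from the start site as base 1, the Mcm3 matches begin at bases 20 and 39, inside the transcribed part. Those of Mcm6 begin at -110 and -47, and the single matches of Cdc6 and Pola1 both at -138. In the GENCODE M21 annotation Cdc6 starts at base 98907801, before its window, so its match lies inside that gene model. The other genes with a match were Mcm5, Mcm7, Dtl, Cdca7, Casp8ap2, Pold3, Ubr7 and Hells. For Mcm7 the match was in the window chr5:138171834-138172133 and not in its other window, chr5:138171217-138171516.

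The libraries held 37591888 to 56575476 counts, and members had 162 to 10986 counts per library. Smad7 itself had 859 to 1097 counts in the wild-type libraries and 41 to 80 in the Smad7-/- libraries, so each library matched its label. Markers of both tooth tissues were present in every library, with the 8 dental epithelium markers summing to 8418 to 10865 CPM (the usual depth-scaled unit, with TMM library sizes) and the 8 dental mesenchyme markers to 415 to 531 CPM. The libraries divide in a way that crosses genotype. A first set, made up of wild type 1 with Smad7-/- 1 and 2, lay at -32.3 to -15.2 on the first principal component, and the other 3 (the second set) at 15 to 25.2. That component held 33.5% of the variance, and the labels give no batch or date for it. Xist was expressed, and Ddx3y had no reads, in wild-type library 1 and in library 3 of Smad7-/-, the pattern of female embryos; these are also the deepest library of each genotype.

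No member differed between genotypes after adjustment over all genes. In edgeR 0 of 43 members were called at an adjusted p under 0.05 (lowest adjusted p = 0.900, for Rrm2), where 4 of 15284 genes (0.0262%) were called. DESeq2 called 0 of 43, against 59 of 16816 genes with an adjusted p (0.351%), and limma-voom called 0. At an unadjusted p under 0.05 edgeR left 1 member, Rrm2, on the lower side, which is 2.33% of members against 1.88% of all genes. On the higher side it left 0, against 3.26% of all genes. Rrm2 was also the only member with every Smad7-/- library below every wild-type library, a pattern that 3.91% of all genes showed. For 0 members did every Smad7-/- library lie above, as 4.97% of all genes did. The share of members was near or under the background in each.

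The fitted differences were small and lay mostly on one side. Of 43 members 39 had a log2 fold change below 0 in Smad7-/- (90.7%), where 50.9% of all tested genes did. The median over the members was -0.10, beside -0.00283 over all tested genes, and the values ran from -0.36 for Wdr76 to 0.12 for Blm. Wdr76 itself was at -0.73 without Smad7-/- library 3, -0.19 without Smad7-/- library 1 and -0.20 with the library set as covariate. The members above 0 were Blm, Cdca7 (0.09), Ubr7 (0.02) and Tipin (0.00). Members of one process vary together from library to library, so this count is not 43 separate observations. The 95% interval of the difference lay within 2-fold in either direction for all 43 members, and within 1.5-fold for 36. Those 7 with a wider interval were Cdc6, Gins1, Pola1, Blm, Wdr76, Atad2 and E2f8. The lowest bound was -0.95 for Pola1 and the highest 0.63 for Blm.

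**Figure D1:**
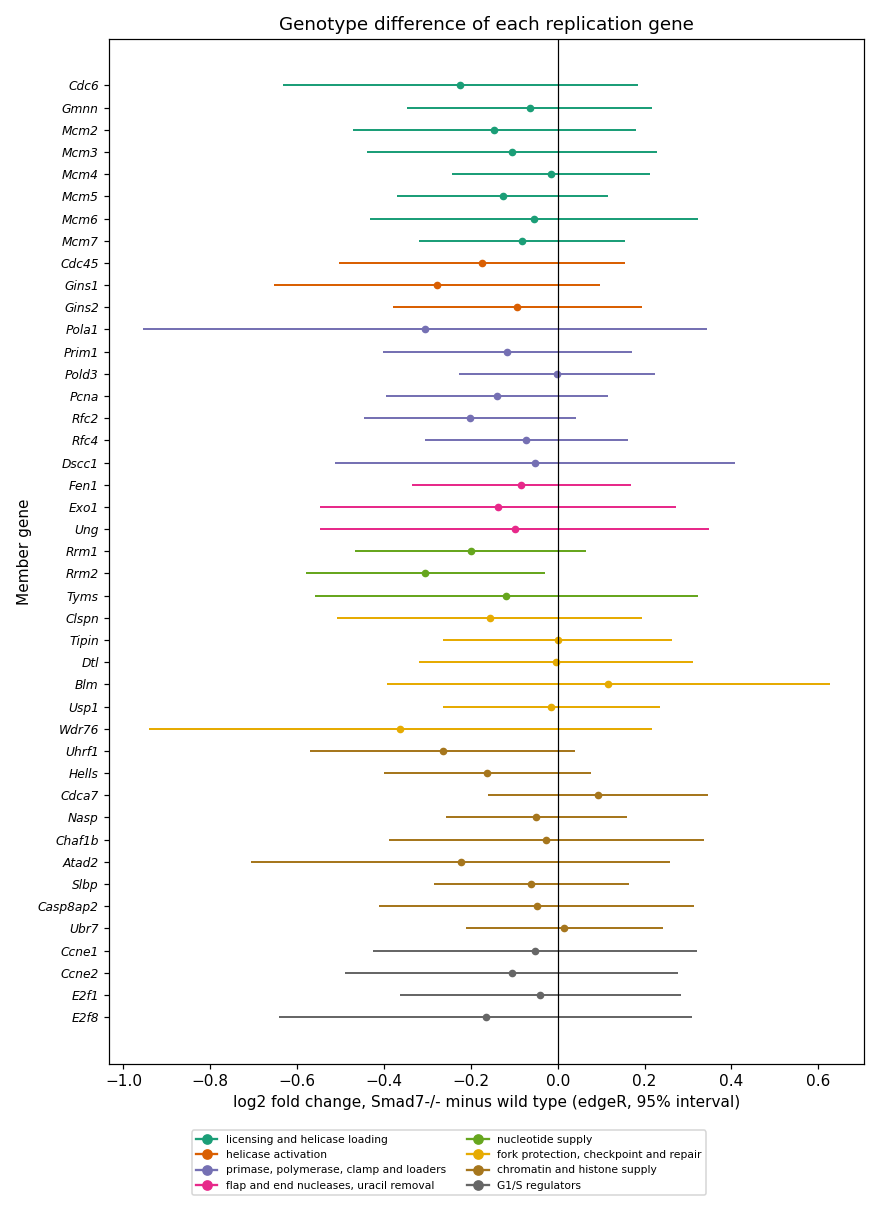
Log2 fold change of each of the 43 members, Smad7-/- minus wild type, as fitted by edgeR (points) with its 95% interval (bars), coloured by role. Most points lie left of 0, from -0.36 for Wdr76 to 0.12 for Blm, and the interval of Rrm2 alone, -0.58 to -0.03, does not include 0.

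The 2 library sets, each taken alone, gave medians of opposite sign, a difference that was not tested. With the set as a covariate in the fit of all 6 libraries the median over members was -0.10, with 38 of 43 lower, 0 called by edgeR and 2 (Gins1 and Rrm2) at an unadjusted p under 0.05. In the first set the mean of Smad7-/- libraries 1 and 2 was below wild-type library 1 for 43 of 43 members, where 49.6% of all tested genes were lower. The median log2 ratio there was -0.29, beside 0.00148 over all tested genes. In the second set Smad7-/- library 3 was below the mean of wild-type libraries 2 and 3 for only 8 members (18.6%), against 51.3% of all tested genes, and above it for the other 35. The median there was 0.12, beside -0.00609 over all tested genes. Blm, a helicase that resolves recombination intermediates, had the widest swing, from -0.48 to 0.70. Both ratios rest on 1 library in one arm, wild-type library 1 and Smad7-/- library 3, which are the female-typed and deepest ones. Without wild-type library 1 the median over members was -0.03 with 28 of 43 lower, and without Smad7-/- library 1 it was -0.04 with 33 lower. Without Smad7-/- library 3 it was -0.18, with 39 of 43 lower and 10 at an unadjusted p under 0.05. The share of all tested genes at that unadjusted p was not counted there or in the fit with the set as covariate. Those member counts therefore have no background beside them. Without wild-type library 3 the median over members was -0.17. For 22 of the 22 members given by library below, at least 1 fit without 1 library moved the value by over 1.5 times or across 0. Being a ratio, this measure is easily passed by values near 0, such as that of Tipin. For Gins1, Rfc2, Rrm2 and Uhrf1 only 1 of the 6 fits without 1 library did so. In none of these fits did edgeR call a member at an adjusted p under 0.05.

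**Figure D2:**
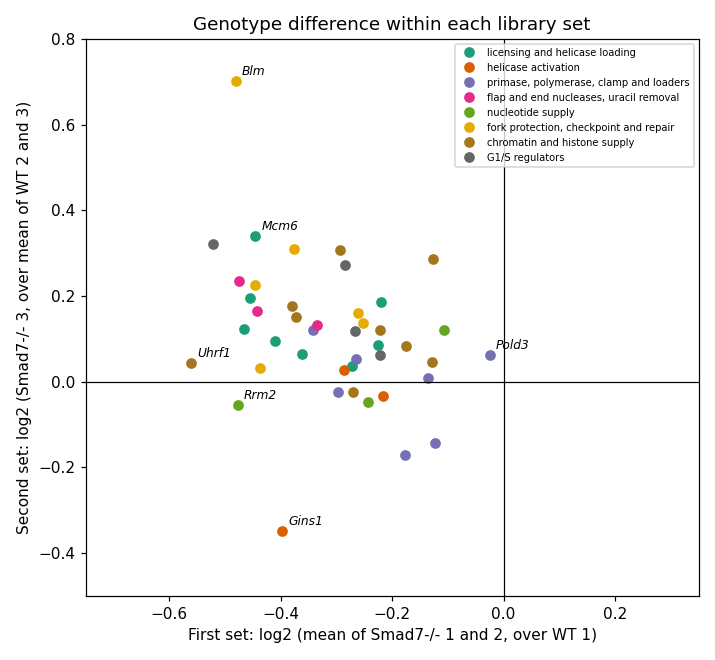
Log2 ratio of Smad7-/- to wild type for each member within the first set of libraries (horizontal axis) and within the second set (vertical axis), coloured by role. All 43 points lie left of 0, and 35 of 43 lie above 0 on the vertical axis.

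The libraries of each genotype differed among themselves in the level of the members. The mean deviation of the 43 members from their own averages (log2) was 0.16, 0.08 and -0.08 in wild-type libraries 1, 2 and 3. The corresponding values in Smad7-/- libraries 1, 2 and 3 were -0.17, -0.11 and 0.11. The genotypes therefore overlapped, with wild-type library 3 near Smad7-/- library 2 and Smad7-/- library 3 above wild-type library 2. For 23 of 43 members (53.5%) wild-type library 1 was the highest of its genotype and Smad7-/- library 3 the highest of its own, against 7.19% of all tested genes. For 17 members (39.5%) the order of levels followed the total counts in both genotypes, against 1.98% of all tested genes. These 17 include Mcm2, Mcm3, Mcm4, Mcm5 and Mcm6 and the 3 regulators Ccne1, Ccne2 and E2f1. These patterns were described after the values were seen. Depth and sex coincide in the deepest library of each genotype. The libraries not typed female also differ in depth, at 48911104 and 47800685 counts in wild type and 37591888 and 44021706 in Smad7-/-. The part of depth or sex in the members' levels was not tested. With sex as a covariate the median genotype difference over members was -0.09. Each genotype holds 1 female-typed library, so that median cannot show the part of sex in the levels.

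**Figure D3:**
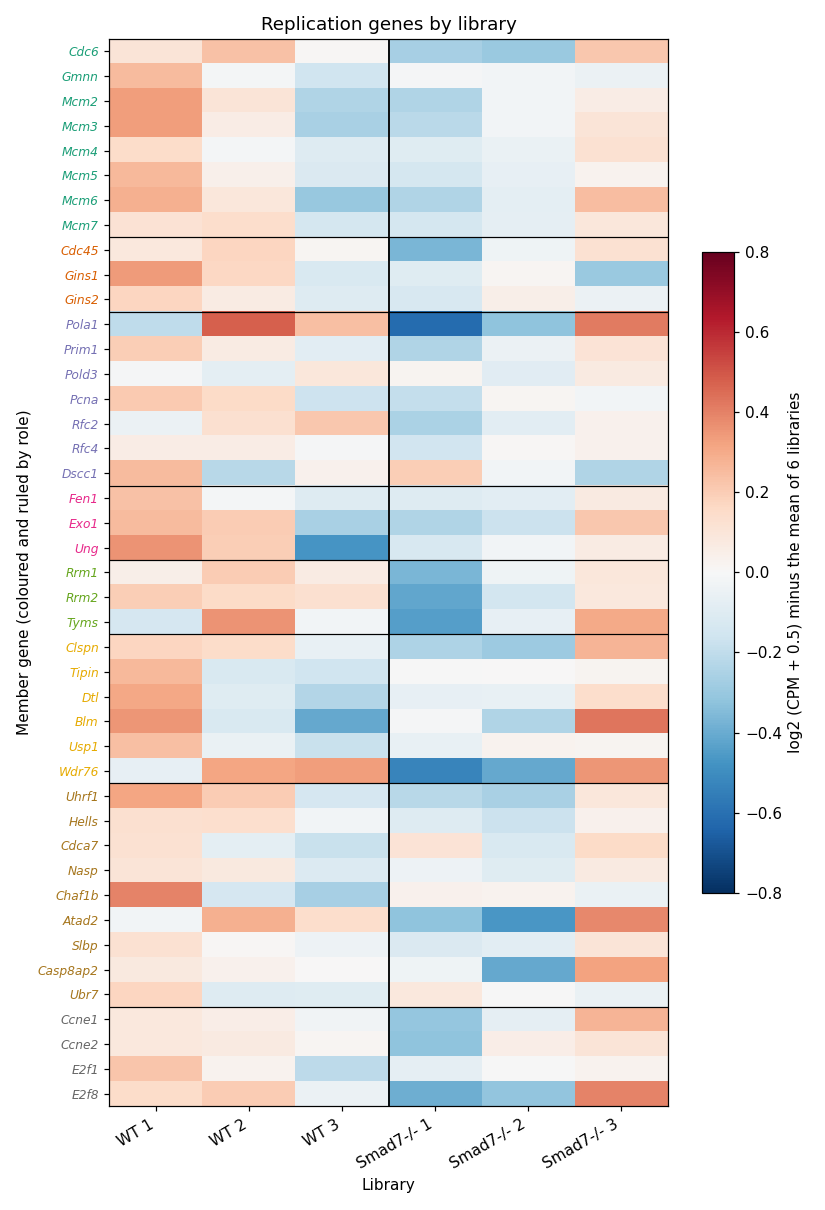
Deviation of each member from its mean over the 6 libraries, on the log2 (CPM + 0.5) scale, red for higher and blue for lower, with members ruled and coloured by role. Wild-type library 1 is mostly red and Smad7-/- library 1 mostly blue (37 and 5 of 43 members above their mean), and Smad7-/- library 3 is red for 36.

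The licensing genes, which load the helicase in G1, all had fitted values below 0, with 8 of 8 lower and a median log2 of -0.09. In what follows values are given in the order of libraries 1, 2 and 3. Mcm2 stood at 92.2, 78.2 and 61.5 CPM in wild type and at 61.6, 71.8 and 76.0 CPM in Smad7-/-. Its wild-type values span the whole Smad7-/- range, and the difference was -0.15 ± 0.14 (log2, SE). Leaving out wild-type library 1 gave -0.00395, and leaving out library 3 of that genotype gave -0.28. Mcm7 stood at 96.7, 98.3 and 80.9 CPM in wild type and at 80.6, 84.8 and 95.1 CPM in Smad7-/- (-0.08 ± 0.11). Its groups overlapped likewise. Exons of Mcm7 overlap those of Cops6 and Ap4m1 on the opposite strand, and the library kit does not record strand. Such overlaps were annotated for 8 members, the others being Cdc45, Gins2, Rfc2, Rfc4, Fen1, Ubr7 and Ccne2. Cdc6, the loader, stood at 8.68, 9.57 and 8.08 CPM in wild type. In Smad7-/- it was at 6.60, 6.46 and 9.42 CPM, low in libraries 1 and 2 and within the wild-type range in library 3 (-0.22 ± 0.18). Mcm3, Mcm4, Mcm5 and Mcm6, the other ring subunits, ranged from -0.13 to -0.02, and Gmnn, whose product geminin blocks a second loading, was at -0.06 ± 0.13.

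The ring subunits were present at like levels. Per kilobase of principal transcript, the 6 Mcm genes had wild-type means from 19.5 ± 1.75 CPM for Mcm4 to 31.1 ± 3.25 CPM for Mcm7 (SD, n = 3). Within a single library the highest of the 6 was 1.5 to 1.73 times the lowest, over both genotypes. Their summed level was 571, 506 and 421 CPM in wild type and 425, 463 and 520 CPM in Smad7-/-. These sums move with the order of total counts in both genotypes, and the groups overlap.

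Helicase activators were lower in 3 of 3, with a median log2 of -0.18. Cdc45 stood at 16.1, 17.1 and 15.3 CPM in wild type and at 11.6, 14.8 and 16.5 CPM in Smad7-/- (log2 -0.18 ± 0.15 SE). Only Smad7-/- libraries 1 and 2 fell outside the wild-type range. Gins1, a GINS subunit, stood at 12.0, 10.6 and 8.56 CPM in wild type and at 8.70, 9.45 and 7.52 CPM in Smad7-/-. The difference of -0.28 ± 0.17 was 1 of the 8 with the same sign in both sets, at -0.40 in the first and -0.35 in the second. Gins2 was at -0.09 ± 0.13; 2758 bases of its exons overlap Gse1 on the opposite strand.

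The polymerase, clamp and loader genes had 7 of 7 fitted values below 0, with a median of -0.12. Pola1, the X-linked catalytic subunit of polymerase alpha that starts each new strand with primase, stood at 23, 37.1 and 31.5 CPM in wild type. In Smad7-/- its values were 17.1, 21.2 and 35.5 CPM. Here the first set of libraries was low and the second high in both genotypes, and the highest library was 2.16 times the lowest. The genotype difference was -0.31 ± 0.28. It was -0.67 without Smad7-/- library 3, -0.10 without Smad7-/- library 1, -0.14 without wild-type library 2 and -0.10 with the library set as covariate. Pcna, the sliding clamp, stood at 108, 104 and 83.1 CPM in wild type and at 81.7, 94.2 and 91.9 CPM in Smad7-/- (-0.14 ± 0.11). Wild-type library 3 was close to Smad7-/- library 1, so the groups overlapped. Rfc2, a clamp loader subunit, stood at 42.5, 48.1 and 51.1 CPM in wild type and at 36.8, 41.3 and 44.9 CPM in Smad7-/- (-0.20 ± 0.11). It was lower within both sets, by -0.12 and -0.14, and its exons overlap those of Lat2. Pold3, a subunit of polymerase delta, varied least of all members among the 6 libraries (coefficient of variation 5.14%) and was at -0.00 ± 0.10. Prim1, Rfc4 and Dscc1, which encode primase and 2 loader subunits, ranged from -0.12 to -0.05.

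Nuclease and uracil removal genes were lower in 3 of 3, with a median of -0.10. Fen1, which trims Okazaki fragments, stood at 47.3, 39.6 and 37.3 CPM in wild type and at 37.2, 37.8 and 42.1 CPM in Smad7-/- (log2 -0.08 ± 0.11 SE). Exo1, an exonuclease of mismatch repair, stood at 15.1, 14.6 and 10.5 CPM in wild type and at 10.6, 11.2 and 14.8 CPM in Smad7-/- (-0.14 ± 0.18). Ung, the uracil glycosylase, stood at 18.9, 16.9 and 10.5 CPM in wild type and at 13.4, 14.5 and 15.4 CPM in Smad7-/- (-0.10 ± 0.20). The wild-type range took in all 3 Smad7-/- libraries for Exo1 and Ung, and all but library 1 for Fen1.

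Genes of nucleotide supply had the lowest median of the role groups, -0.20, with 3 of 3 below 0. Rrm2, the small subunit of ribonucleotide reductase, which limits the supply of deoxynucleotides in S phase, stood at 52.9, 51.3 and 50.4 CPM in wild type. In Smad7-/- it stood at 34.5, 41.6 and 48.9 CPM. All 3 Smad7-/- libraries were below the lowest wild-type library, but library 3 by only a small margin. The level went from 51.5 ± 1.28 to 41.7 ± 7.21 CPM (SD, n = 3), a log2 fold change of -0.31 ± 0.12 SE that did not pass (edgeR adjusted p = 0.900). Over the alternatives its adjusted p ran from 0.431 to 1.00. The difference was -0.48 within the first set and -0.05 within the second. Rrm1, the large subunit, stood at 186, 207 and 187 CPM in wild type and at 139, 175 and 191 CPM in Smad7-/- (-0.20 ± 0.12). Smad7-/- library 3 lay inside the wild-type range and the other 2 below it. Tyms, which makes thymidylate, was at -0.12 ± 0.19.

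Fork protection, checkpoint and repair genes had the median nearest 0, at -0.01, with 4 of 6 below it. Clspn, the adaptor that activates the checkpoint kinase CHK1, stood at 32.2, 31.8 and 27.5 CPM in wild type and at 24.1, 23.3 and 34.7 CPM in Smad7-/- (log2 -0.16 ± 0.16 SE). Wdr76, a WD repeat protein, stood at 6.13, 8.13 and 8.27 CPM in wild type and at 4.31, 4.74 and 8.38 CPM in Smad7-/- (-0.36 ± 0.26). As for Pola1, its first-set libraries were the low ones in both genotypes. Tipin, the partner of Timeless at the fork, stood at 77.8, 59.6 and 58.1 CPM in wild type and at 64.8, 65.0 and 65.8 CPM in Smad7-/-. Its fitted difference was 0.00 ± 0.12, with the Smad7-/- libraries close together inside the wild-type range. Dtl, which marks the licensing factor CDT1 for destruction, and Usp1, which removes ubiquitin from PCNA, were at -0.00 ± 0.14 and -0.01 ± 0.11.

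Chromatin and histone supply genes had 7 of 9 values below 0 and a median of -0.05. Uhrf1, which carries DNA methylation through replication, stood at 122, 113 and 89.2 CPM in wild type and at 83.7, 81.7 and 104 CPM in Smad7-/- (log2 -0.27 ± 0.14 SE). Its difference was -0.56 within the first set and 0.04 within the second. Nasp, a histone H3-H4 chaperone, had the highest level per kilobase of all members in wild type, 71.7 ± 5.63 CPM (SD, n = 3). It stood at 160, 157 and 138 CPM in wild type and at 145, 139 and 156 CPM in Smad7-/-, with overlapping groups (-0.05 ± 0.09). Atad2, a bromodomain ATPase, stood at 32.0, 39.6 and 35.8 CPM in wild type and at 25.9, 23.3 and 42.6 CPM in Smad7-/- (-0.22 ± 0.21). Its Smad7-/- libraries lay on both sides of the wild-type range. Hells, a chromatin remodeller, Chaf1b, a subunit of the CAF-1 histone chaperone, and Slbp and Casp8ap2, which process histone messages, ranged from -0.16 to -0.03. Cdca7, which works with Hells, and Ubr7, a ubiquitin ligase, were at 0.09 ± 0.11 and 0.02 ± 0.10.

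The regulators of the G1/S step were lower in 4 of 4, with a median of -0.08. Ccne1, a cyclin E gene, stood at 11.7, 11.4 and 10.8 CPM in wild type and at 8.81, 10.5 and 13.4 CPM in Smad7-/- (log2 -0.05 ± 0.17 SE). Ccne2, the second cyclin E gene, stood at 7.08, 7.02 and 6.72 CPM in wild type and at 5.22, 6.92 and 7.17 CPM in Smad7-/- (-0.11 ± 0.17). In both genes the wild-type libraries were close and the Smad7-/- libraries spread around them. E2f8, an E2F repressor of late S phase, stood at 13.8, 14.4 and 12.0 CPM in wild type and at 9.37, 9.89 and 16.5 CPM in Smad7-/- (-0.17 ± 0.21). Again libraries 1 and 2 lay below wild type and library 3 above it. E2f1, an activating E2F, was at -0.04 ± 0.14. Per kilobase Ccne1 exceeded Ccne2 in wild type, at 5.67 ± 0.240 against 2.31 ± 0.0637 CPM (SD, n = 3).

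**Figure D4:**
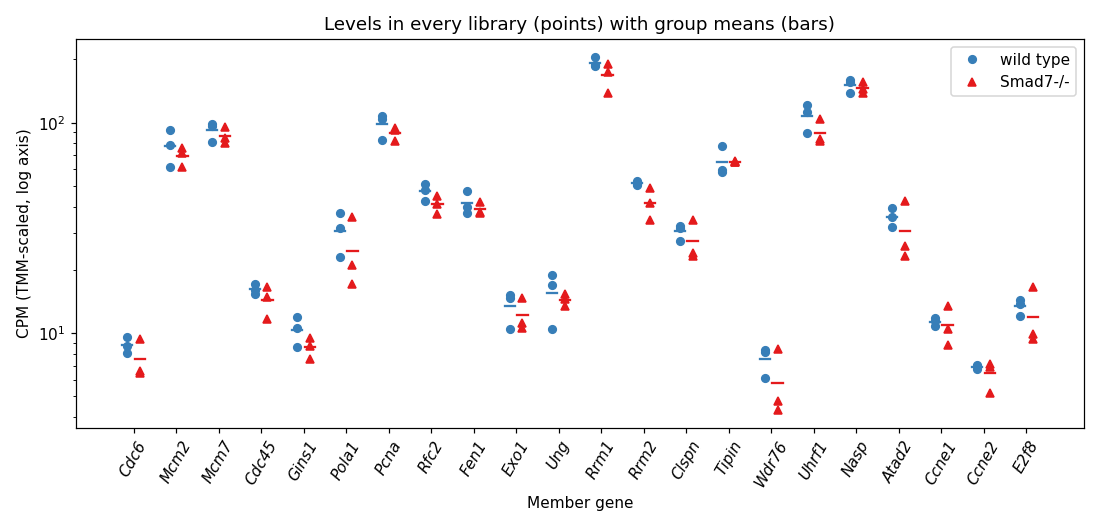
CPM of 22 members in every library (log axis), circles for the 3 wild-type libraries and triangles for the 3 Smad7-/- libraries, with a bar at each group mean. The groups overlap for each gene shown except Rrm2, where the triangles lie at 34.5 to 48.9 and the circles at 50.4 to 52.9.

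Some members separated the library sets, in shares near or under those of all tested genes. Every first-set library was below every second-set library for 6 members, Pola1, Rfc2, Rrm1, Tyms, Wdr76 and Atad2, which is 14% of members against 13.7% of all tested genes. Chaf1b and Ubr7 were above in the same sense, 4.65% against 14.9%. Set means differed most for Pola1, at -0.76 (log2, first minus second set), Wdr76 at -0.71 and Atad2 at -0.54. Since the sets were drawn from all genes, these values are a description.

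Other genes of DNA replication, none of them members, were listed by function. Of 56 tested genes of origin recognition, elongation, repair and nucleotide supply, 41 were below 0 and 15 above, with a median of -0.06, and 0 were called by edgeR. By library their mean deviations were 0.10, 0.06 and -0.05 in wild type and -0.12, -0.06 and 0.07 in Smad7-/-, the same order of libraries as for the members within each genotype. One of them, Pole, the catalytic subunit of the leading-strand polymerase epsilon, had an unadjusted p under 0.05. On that lower side 1.88% of all tested genes did. Pole stood at 36.1, 31.8 and 29.3 CPM in wild type and at 23.9, 26.9 and 27.7 CPM in Smad7-/- (log2 -0.31 ± 0.11 SE, edgeR adjusted p = 0.827).

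Genes of G2 and mitosis, the next phase, were below 0 for 54 of 55, all but Hjurp, with a median of -0.15. EdgeR called 0 of them. At an unadjusted p under 0.05 it left 0, against 1.88% of all tested genes lower and 3.26% higher. In wild-type library 1 the G2/M mean deviation was -0.00, whereas that of the members was 0.16, their highest. In the other libraries the G2/M values were 0.17 and 0.07 for wild-type libraries 2 and 3 and -0.20, -0.25 and 0.22 for Smad7-/-. The difference between the lists was not tested.

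**Figure D5:**
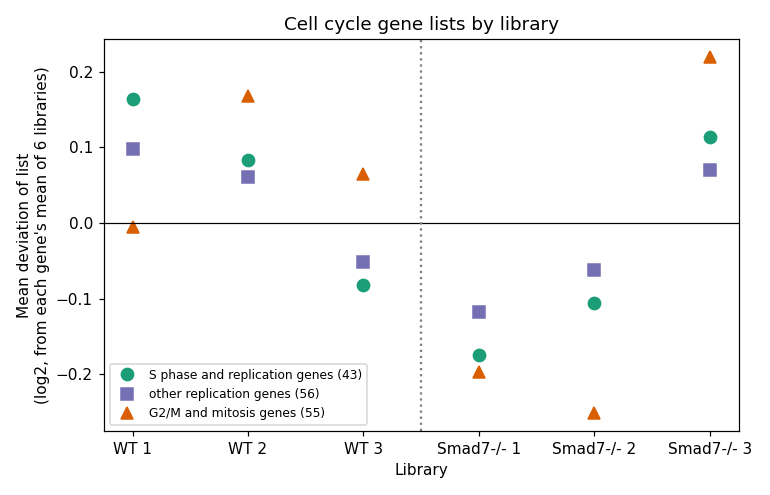
Mean deviation (log2) of 3 cell cycle gene lists in each library, from each gene's mean over the 6 libraries. Replication genes (circles) are highest in wild-type library 1 at 0.16 and G2/M genes (triangles) highest in Smad7-/- library 3 at 0.22.

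Upstream of E2F, 1 of 9 genes for D-type cyclins, their kinases and pocket proteins was called by edgeR, where 0.0262% of all genes were. Ccnd1, which encodes cyclin D1, stood at 22.1, 21.7 and 20.3 CPM in wild type and at 9.50, 11.5 and 8.73 CPM in Smad7-/- (log2 -1.11 ± 0.14 SE; edgeR adjusted p = 0.0339). Every Smad7-/- library lay below every wild-type library. The call was lost in 9 of 17 alternatives, with Ccnd1 between -1.35 and -1.03 in them. Its edgeR adjusted p was 0.0738 to 0.261 without 1 library (any of the 6), 0.0604 among genes averaging 5 CPM or more, 0.115 with sex as covariate and 0.903 with the red blood cell covariate. Cdk4, a kinase partner of the D cyclins, stood at 18.2, 20.7 and 17.7 CPM in wild type and at 13.9, 9.64 and 7.72 CPM in Smad7-/-. It too had no overlap (-0.86 ± 0.20, edgeR adjusted p = 0.586). Of 17 alternatives only DESeq2 called it (DESeq2 adjusted p = 0.0112). Ccnd3, a D-type cyclin gene, was higher, at 50.4, 40.6 and 44.4 CPM in wild type and 52.3, 59.8 and 53.4 CPM in Smad7-/-. Its groups did not overlap either (0.29 ± 0.11, edgeR adjusted p = 0.827). Of the 9 genes 4 were above 0 (Ccnd3, Cdk6, Rb1 and Rbl2), and the median was -0.03. Among the 7 CDK inhibitor genes edgeR called 0, with a median of 0.32. At an unadjusted p under 0.05, 2 of them were higher in Smad7-/-, where 3.26% of all tested genes were. The larger of these, Cdkn1a, encodes p21 and stood at 17.4, 16.4 and 16.5 CPM in wild type and at 35.5, 29.6 and 21.4 CPM in Smad7-/-. Its difference was 0.78 ± 0.17 (edgeR adjusted p = 0.536). Of 17 alternatives only DESeq2 called Cdkn1a (DESeq2 adjusted p = 0.00834). It ran from 0.60 to 0.95 without 1 library and was at 0.24 with the red blood cell covariate.

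Sums of several marker lists lay apart between genotypes in the same libraries. In a bulk sample fewer cells of a type and less RNA per cell cannot be told apart. Of 16 red blood cell markers 12 were in the tables, and 5 globin genes among them were at 0 in every library. Their sum was 37.3 to 53.2 CPM in wild type and 17.1 to 31.0 CPM in Smad7-/-. With this sum as a covariate the median over the members was 0.19, with 37 of 43 above 0, while edgeR called 0 members and 0 genes. The sum does not overlap between genotypes, so covariate and genotype largely coincide in that fit. The 11 macrophage markers in the tables summed to 126 to 179 CPM in wild type and 212 to 233 CPM in Smad7-/-, and the 8 dental mesenchyme markers to 415 to 487 and 495 to 531 CPM. The 8 dental epithelium markers (9840 to 10865 and 8418 to 10066 CPM) and the 8 endothelial markers (250 to 381 and 351 to 396 CPM) overlapped between genotypes. The 9 skeletal muscle markers summed to 6.92 to 8.56 CPM in wild type and 4.79 to 6.88 CPM in Smad7-/-. The 8 neuron markers summed to 324 to 364 and 280 to 351 CPM. Among markers that passed the filter, 8 of 8 of dental epithelium (median log2 -0.13), 5 of 5 of red blood cells (-1.14), 6 of 7 of skeletal muscle (-0.82) and 4 of 6 of neurons (-0.17) were below 0. Above 0 were 7 of 8 of dental mesenchyme (0.45), 11 of 11 of macrophages (0.59) and 8 of 8 of endothelium (0.22). EdgeR called 0 of these markers. At an unadjusted p under 0.05 it left 9 macrophage, 5 mesenchyme, 2 epithelium, 2 red blood cell and 2 muscle markers, and 0 of endothelium and neurons. Of these the macrophage and mesenchyme markers were higher in Smad7-/-, as were 3.26% of all tested genes at that p. The rest were lower, as were 1.88% of all tested genes. The part of epithelial, mesenchyme, macrophage, endothelial, muscle and neuron RNA in the members' values was not tested.

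As a baseline, replication genes were moderately expressed in the wild-type tooth germ. Per kilobase of principal transcript their levels ran from 1.72 CPM for Exo1 to 71.7 CPM for Nasp, with a median of 15.3 CPM beside 8.16 CPM over the 13744 tested genes with such a transcript. Of the 43 members 26 lay above that median. After Nasp the most abundant were Pcna at 64.8 ± 8.82 and Rrm1 at 48.3 ± 2.92 CPM per kilobase (SD, n = 3), and Tipin followed at 35.4 ± 5.95. Nasp and Pcna overlapped within their spread, whereas the wild-type ranges of Pcna, Rrm1 and Tipin did not. Tipin in turn overlapped with Mcm7 (31.1 ± 3.25), Usp1 (31.0 ± 4.71), Mcm6 (30.9 ± 6.23) and Uhrf1 (30.1 ± 4.72). The lowest were Exo1, Wdr76 (1.80 ± 0.288) and Ccne2. Pcna, Tyms and Nasp have annotated pseudogenes (Pcna-ps1, Pcna-ps2, Tyms-ps and Nasp-ps1), and how reads shared with them were counted is not given in the sources used here. The coefficient of variation over the 6 libraries had a median of 12.9% among members, beside 12.1% among all tested genes, and reached 29.9% for Pola1.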

How the data were processed

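Per the labels' protocols, total RNA (RNeasy) went into TruSeq RNA libraries, a kit that does not record strand. The authors deposited raw counts per gene symbol, 1 table per library; HISAT2, featureCounts, DESeq2 and mm10 are named in the submitters' processing notes, without versions. Of 23420 symbols 27 had become dates, none of them a member. Low genes were removed by filterByExpr (count 10, total 15 at least), and the rest tested by the quasi-likelihood test of edgeR 4.0.16 in R 4.3.3, with TMM scaling and no covariate. P-values were adjusted by Benjamini-Hochberg over all 15284 genes, at 0.05. SE is the fold change over the root of the F statistic, and 95% intervals use its degrees of freedom. Levels per kilobase use the longest principal transcript of GENCODE M21 (GRCm38), a length chosen after the tables were seen. Alternatives were DESeq2 1.42.0, limma 3.58.1 (voom) and those in the closing section.

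On 3 simulated sets of 15284 genes edgeR recovered 52.0% of genes changed 1.5-fold and 90.7% of those changed 2-fold, with 7.56% of calls false. Each set held 100 changed genes per fold, all drawn from genes of at least 5 CPM. The real comparison called 4 genes. With fewer changed genes the adjusted threshold is stricter, so these shares may be too high for the real comparison. Members and lists were chosen with earlier results of these data known. Values in every library were given for members that were called in any fit, had an unadjusted p under 0.05 or did not overlap, and for the 2 largest changes and the highest level per kilobase of each role. Residuals of same-numbered libraries correlated at 0.169, -0.0339 and 0.0927, so the numbers were not taken as pairs.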

Additional observations from a re-analysis of the deposited data

How the results depend on the processing

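Across 17 alternatives edgeR, DESeq2 and limma-voom called 0 of 43 members, and the median over members stayed below 0 in 16 of them. The exception was the red blood cell covariate, where the median was 0.19 and 0 genes were called. In that fit Cdc6 was at 0.21, Mcm2 at 0.19, Mcm7 at 0.12, Cdc45 at 0.0788, Pola1 at 0.18, Fen1 at 0.22, Exo1 at 0.34, Ung at 0.20 and Rrm2 at 0.0404. Clspn was at 0.38, Wdr76 at 0.22, Uhrf1 at 0.15, Nasp at 0.13, Atad2 at 0.36, Ccne1 at 0.40, Ccne2 at 0.11 and E2f8 at 0.52. The cause was not tested. The count of 4 genes called became 59 by DESeq2, 2 among genes averaging 5 CPM or more, and 1 to 7 without 1 library. Without 1 library the median over members ran from -0.18 to -0.03. Over the same fits Fen1 ran from -0.15 to 0.0194, Ung from -0.31 to 0.0698, Ccne1 from -0.23 to 0.0777, Ccne2 from -0.19 to 0.0218 and Tipin from -0.0748 to 0.14. Tipin, at 0.00 in the fit reported, was at -0.00188 by DESeq2, -0.00168 with RLE size factors, -2.12e-05 with no filter and -0.0504 with the library set as covariate. With the replicate number as a block (replicate block) the median was -0.09, with 4 genes and 0 members called and 2 members at an unadjusted p under 0.05. The share of all tested genes at that unadjusted p was not counted in this fit. In the simulation, where each set held 100 changed genes per fold, edgeR recovered 52.0% of 1.5-fold changes. In the real fit edgeR did not call Cdk4 at -0.86 or Cdkn1a at 0.78. A difference in a single member, also one above 1.5-fold, may therefore not have been detectable with 3 libraries per genotype.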
